A study of Mus musculus with 6 samples.

Results

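The replication-dependent histone genes were taken as the protein-coding genes of GRCm38 whose symbols begin with H2ac, H2bc, H3c or H4c and a number, or are H1f1 to H1f5. The gene table held 62 of them among 21883 protein-coding genes on the chromosomes considered, namely 5 H1, 17 H2A, 16 H2B, 12 H3 and 12 H4 genes. Membership was set by symbol alone and by no measured value, though the set was chosen with earlier results of these data known. H3K9cr (2 libraries) and H3K9ac (2 libraries), the crotonylated and acetylated forms of lysine 9 of histone H3, were profiled by native ChIP-seq in P19 embryonal carcinoma cells of the mouse, a line resembling early embryonic cells. All 4 libraries came from cells in proliferation medium, MEM α with serum, with no treatment named in the labels and with 2 biological replicates of each mark per the series design text. The antibodies came from PTM Biolab, 1 per mark, so that antibody and mark cannot be told apart, and the 2 input libraries were not analysed here.

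Replication-dependent histone genes supply the histones that package newly copied DNA in S phase. Their short genes lack introns, their transcripts end in a stem-loop in place of a poly(A) tail, and they lie in clusters that are brought together in the histone locus body, a nuclear structure organised around the factor NPAT. Many H2A and H2B genes stand back to back and share a promoter between their starts. The core histones H2A, H2B, H3 and H4 form the nucleosome, and the H1 proteins bind the DNA between nucleosomes. Crotonylation and acetylation of H3 lysine 9 are both acyl marks of active promoters, and both sit on nucleosomes.

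The members fell into 3 clusters (runs of members less than 500 kb apart). Cluster 1 lay on chromosome 13 from 21715711 to 22043658 with 22 members, cluster 2 on chromosome 13 from 23531044 to 23934913 with 30 members, and cluster 3 on chromosome 3 from 96219885 to 96270192 with 10 members. The gene records were short, with a median of 491 bp, and 5 of the 62 were longer than 1 kb. All 5 long records belonged to H2B genes, the longest being H2bc6 at 37455 bp. A gene counted as marked when a peak overlapped its record or the 1 kb on either side of it (the gene window) by at least 1 bp.

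The promoters of 7 members are shown first because the results turn on them. The window of each runs from 250 bases before to 50 bases after the annotated start, and capitals mark matches to 5 motifs known from histone promoters, searched on both strands. The motifs were the octamer ATTTGCAT, the TATA box TATAAA, the CCAAT box CCAAT, the H1 box AAACACA and the core of the site of HINFP, the H4 gene activator, GGTCCG. No motif contains another. H2bc15 and H4c1 lay under an unbroken H3K9cr peak and under a break in both H3K9ac lists, and H2bc8 under a break in 1 H3K9ac list. H4c8, H1f2 and H3c3 lay under peaks of both marks in all libraries. H2bc1 (TH2B), the testis-specific H2B gene, lay under no peak. The sequences are those of RefSeq for GRCm38.p6 and are written 5′ to 3′ on the strand of the gene, with the position on the chromosome in the name.
H2bc15 (chr13:21753826-21754125, plus strand): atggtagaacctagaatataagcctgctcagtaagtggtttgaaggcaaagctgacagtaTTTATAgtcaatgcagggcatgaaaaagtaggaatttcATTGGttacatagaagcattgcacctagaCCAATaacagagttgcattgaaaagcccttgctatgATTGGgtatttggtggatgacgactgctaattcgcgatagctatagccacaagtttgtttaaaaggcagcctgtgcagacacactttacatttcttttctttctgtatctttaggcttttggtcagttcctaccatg
H4c1 (chr13:23761200-23761499, minus strand): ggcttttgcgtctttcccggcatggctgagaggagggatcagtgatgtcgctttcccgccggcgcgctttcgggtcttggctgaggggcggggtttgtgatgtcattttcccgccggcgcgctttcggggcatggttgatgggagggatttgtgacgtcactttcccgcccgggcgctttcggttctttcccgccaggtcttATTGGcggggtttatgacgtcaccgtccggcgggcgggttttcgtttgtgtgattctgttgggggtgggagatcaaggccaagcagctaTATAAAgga
H4c8 (chr13:23530794-23531093, plus strand): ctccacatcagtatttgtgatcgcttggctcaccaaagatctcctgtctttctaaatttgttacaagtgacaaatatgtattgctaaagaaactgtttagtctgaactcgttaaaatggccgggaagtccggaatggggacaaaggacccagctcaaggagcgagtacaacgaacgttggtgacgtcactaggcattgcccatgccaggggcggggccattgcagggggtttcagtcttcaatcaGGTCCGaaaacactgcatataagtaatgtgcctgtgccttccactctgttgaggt
H2bc8 (chr13:23571150-23571449, plus strand): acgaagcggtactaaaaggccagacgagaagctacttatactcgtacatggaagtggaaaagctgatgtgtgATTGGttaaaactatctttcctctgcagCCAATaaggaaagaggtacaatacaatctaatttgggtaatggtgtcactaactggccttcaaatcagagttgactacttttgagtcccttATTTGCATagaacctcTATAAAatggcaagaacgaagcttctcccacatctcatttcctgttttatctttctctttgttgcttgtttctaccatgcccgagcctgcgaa
H1f2 (chr13:23738557-23738856, plus strand): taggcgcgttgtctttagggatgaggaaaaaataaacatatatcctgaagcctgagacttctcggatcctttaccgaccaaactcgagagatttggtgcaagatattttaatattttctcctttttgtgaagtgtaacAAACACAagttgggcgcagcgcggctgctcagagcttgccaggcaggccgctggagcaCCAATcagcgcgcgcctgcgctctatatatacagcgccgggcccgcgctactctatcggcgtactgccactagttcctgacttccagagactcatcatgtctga
H3c3 (chr13:23745472-23745771, minus strand): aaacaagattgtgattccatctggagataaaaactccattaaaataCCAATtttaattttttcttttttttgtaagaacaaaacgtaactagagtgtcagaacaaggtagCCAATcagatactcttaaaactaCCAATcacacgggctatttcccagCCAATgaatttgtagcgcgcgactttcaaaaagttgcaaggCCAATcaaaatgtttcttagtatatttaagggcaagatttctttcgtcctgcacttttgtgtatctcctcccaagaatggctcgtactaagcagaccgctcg
H2bc1 (chr13:23934107-23934406, minus strand): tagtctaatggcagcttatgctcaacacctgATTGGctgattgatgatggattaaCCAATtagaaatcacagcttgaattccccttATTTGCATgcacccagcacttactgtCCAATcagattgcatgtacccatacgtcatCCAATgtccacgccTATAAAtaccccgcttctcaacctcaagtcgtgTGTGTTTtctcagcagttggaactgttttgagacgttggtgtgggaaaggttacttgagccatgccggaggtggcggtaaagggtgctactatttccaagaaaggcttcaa
A match to the octamer, the site of POU2F1 (OCT1), was found in 7 of 15 H2B and 6 of 17 H2A promoters, in 0 H1, H3 and H4 promoters, and in 1.60% of the 21204 promoters of other coding genes. The H1 box was found in 4 of 5 H1 promoters, against 6.13% of other promoters. The HINFP core was found in 10 of 11 H4 promoters, against 10.4% of other promoters. The CCAAT box was present in all H1, H2A, H2B and H3 promoters with a sequence but in 3 of 11 H4 promoters, against 38.1% of other promoters. TATAAA was found in 34 of 58 promoters of members and in 12.5% of other promoters. The median GC content was 45.3% in the members and 56.3% in other coding genes. RefSeq promoters were matched for 57 of the 62 members, 1 of which had 2 promoters, and the 5 without an entry were H3c7, H2bc4, H3c1, H2bc21 and H4c14. A match is a description of these letters and shows no bound factor.

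Most histone genes carried both marks. Of the 62 members, 57 had a peak in H3K9cr replicates 1 and 2 and the same number had one in H3K9ac replicates 1 and 2, and 57 members (91.9%) had a peak in every library. Over all protein-coding genes the share with a peak in every library was 67%. All H1 genes (5 of 5), all H3 genes (12 of 12) and all H4 genes (12 of 12) were marked, as were 14 of 17 H2A genes and 14 of 16 H2B genes. The counts were equal between the marks (exact two-sided permutation test over 2 H3K9cr and 2 H3K9ac libraries, p = 1, n = 2 each), and the smallest p that this design allows is 0.333. Short genes in general were seldom marked: of coding genes with a record of at most 1 kb, 53 of 57 members (93.0%) and 45 of 1520 others (2.96%) had a peak in every library. The others were chosen by record length alone and which genes they are is not given here. The part of length in this contrast was not tested.

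The 5 unmarked members were H2bc1 and H2ac1 in cluster 2 and H2bc23, H2ac23 and H2ac24 in cluster 1. H2bc1 and H2ac1 encode TH2B and TH2A, the histones of the testis, and form a divergent pair with 280 bp between their records at the far end of cluster 2. H2bc23 and H2ac23 are another divergent pair, 167 bp apart, and H2ac24 is a single H2A gene with H4c18 as its nearest neighbour. None of the 5 had a covered base in its gene window in any library. A list shows no signal under its caller's threshold, so these genes are without a listed peak and not measured as free of the marks. The promoter of H2bc1 holds the octamer, TATA box, CCAAT box and H1 box matches that marked members also have.

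The lists were of similar size, with 28360 and 28345 peaks for H3K9cr and 26096 and 27474 peaks for H3K9ac, and H3K9cr peaks covered 41.2 and 42.1 Mb against 36.4 and 40.0 Mb for H3K9ac. No source used here gives the read depth. Peaks lay at all 6 marker genes chosen for P19 cells and at 2 of 7 markers of other cell types in every library. Nanog, a pluripotency factor among the 6, had the weakest peaks, at percentiles of fold enrichment within the lists of 43.9 and 40.2 in H3K9cr and 29.3 and 4.87 in H3K9ac (mean 29.6), while the other 5 had means of 75.7 (Lin28a) to 88.3 (Utf1). Of the 7 other markers, Rbfox3 and Col1a1 had peaks at means of 58.0 and 48.0, above that of Nanog, and Alb, Hbb-bt, Ptprc, Myh6 and Krt14 had no peak.

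The 57 marked genes did not have 57 separate sites. Peaks of the 4 libraries that touched a member merged into 45 regions, 15 in cluster 1, 22 in cluster 2 and 8 in cluster 3, and 41 of the 45 were listed in all 4 libraries. Of these regions 25 touched the window of 1 member, 14 of 2 members and 6 of 3 or more. No region touched another coding gene's record. Members that shared a region formed 32 groups, in which 16 members stood alone and 41 shared a region with at least 1 other member. The map of the clusters shows the marked stretches separated by unmarked DNA.

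**Figure D1:**
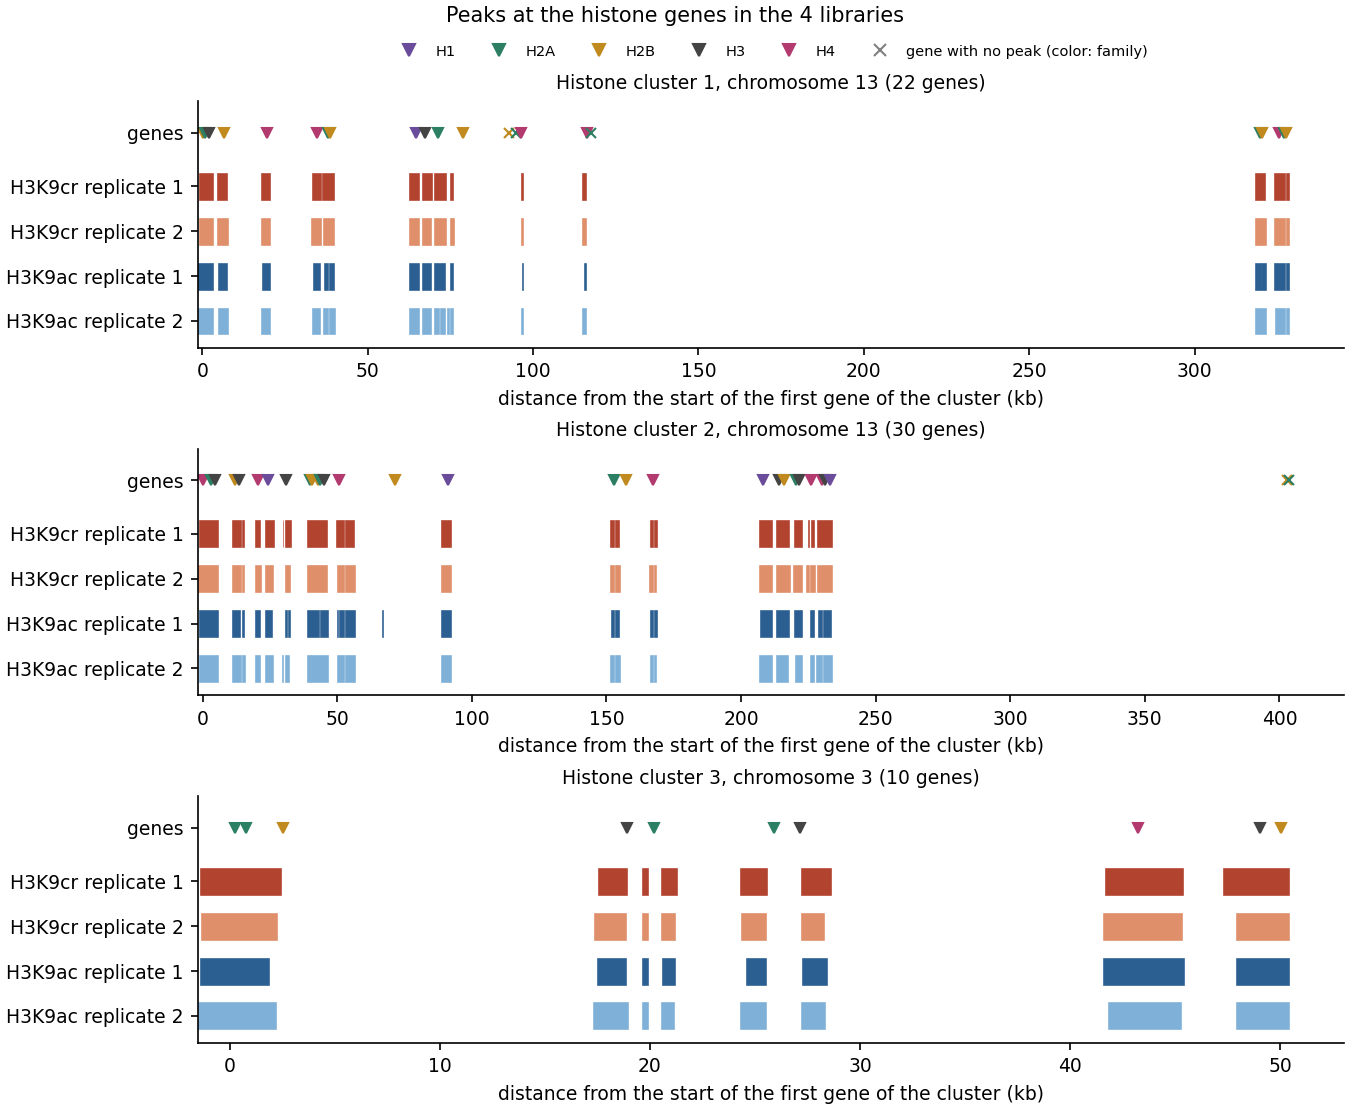
Peaks (bars) of the 2 H3K9cr libraries above the 2 H3K9ac libraries in each histone cluster, against the distance in kb from the start of the first gene; triangles are genes with a peak in every library, crosses genes without a peak, coloured by family. The peaks lie at the genes in all 4 libraries, and the 5 crosses are H2bc23, H2ac23 and H2ac24 in cluster 1 and H2bc1 and H2ac1 in cluster 2.

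The median region was 2887 bp long, against a median gene record of 491 bp. The longest region, on chromosome 13 from 23569814 to 23577608, was 7795 bp and held 5 genes: the divergent pairs H2ac8 with H2bc8 and H2bc7 with H2ac7, and H3c4. The next, 7390 bp on chromosome 13 from 23529478 to 23536867, held H4c8, H2ac10 and H3c8, and the third, 5903 bp on chromosome 13 from 23758968 to 23764870, held H4c1, H3c1 and H1f1. In cluster 3 the regions were shorter, with a median of 1550 bp, against 3085 bp in cluster 1 and 2646.5 bp in cluster 2. The 4 regions that were missing from at least 1 library were the shorter stretches within the windows of H2bc22, H3c6, H2bc6 and H4c2. One of them, 1110 bp beside H4c2, was listed in both H3K9cr libraries and in neither H3K9ac library.

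The H3K9cr lists held fewer and longer peaks at the histone genes than the H3K9ac lists. Members were touched by 43 and 42 peaks in the H3K9cr libraries against 48 and 47 in the H3K9ac libraries, yet H3K9cr peaks there covered 113726 and 114776 bp against 104158 and 109918 bp for H3K9ac. The median peak length at members was 2837 and 2778 bp in H3K9cr and 1719.5 and 1908 bp in H3K9ac. The groups did not overlap for any of these 3 measures, each with p = 0.333 by exact two-sided permutation (n = 2 each), the smallest possible value. Within its own list, the median peak at members stood at length percentile 90.3 and 88.9 in H3K9cr and 68.4 and 71.9 in H3K9ac. Cluster 1 had 14 and 14 H3K9cr peaks against 16 and 17 H3K9ac peaks, cluster 2 had 21 and 20 against 24 and 22, and cluster 3 had 8 in every library.

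Much of this difference in number lay in breaks in H3K9ac peaks at gene starts. Of the 41 regions with a peak in every library, 7 (17.1%) were split into at least 2 peaks in an H3K9ac list and in no H3K9cr list, whereas 0 were split in an H3K9cr list only. Over all 22972 regions with a peak in every library these shares were 4.37% and 1.31%. Longer regions were split more often in general: of regions of at least 2 kb, 7 of 26 at members (26.9%) and 7.72% of 8513 others were split in H3K9ac lists only. The 2 sets were not matched in length, with medians of 3502.5 bp at members and 2659 bp in the others. The pattern was noticed in these lists and is given with no test.

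A break here is a gap between peaks of a list that a peak of another list bridges, since only bridged gaps lie inside a merged region. The breaks numbered 0 and 0 in the H3K9cr lists and 6 and 4 in the H3K9ac lists. They were 244 to 298 bp long, and the middle of every one lay upstream of an annotated start, at 19.5 to 118.5 bp. Of the 10 breaks, 6 lay between the starts of an H2A and an H2B gene and the other 4 upstream of H4c1, H4c4 or H3c6. Both H3K9cr lists covered the middle of all 10. Gaps of at most 500 bp with their middle within 200 bp of a member's start were counted, a definition added after seeing the data. There were 3 and 3 in the H3K9cr lists and 9 and 7 in the H3K9ac lists. Of these, 3 in each list were bridged by no list. A gap that no list bridges is open in every list, so this equal number follows from the definition and does not compare the marks. The 3 gaps bridged by none lay upstream of H2bc11, H2ac6 and H4c3 in all 4 libraries. At H4c3 the gap was 283 and 303 bp long in H3K9cr and 308 and 289 bp in H3K9ac, and peaks covered 14.0% and 12% of its promoter window in H3K9cr against 9.67% and 12% in H3K9ac. The promoter of H4c2 was the reverse case in 1 library, with 6.33% and 100% covered in H3K9cr against 100% and 100% in H3K9ac. In other regions with a peak in every library, the middle of a break lay within 200 bp of a coding gene's start for 16.6% and 12.5% of breaks in the H3K9cr lists and 23.5% and 15.5% in the H3K9ac lists. Regions at members were chosen because they touch a gene window, while the others were taken genome-wide, wherever they lay. These shares therefore do not set the breaks at members apart. The H3K9ac lists, above all that of replicate 1, also covered less of the genome in total, and the part of this in the breaks was not tested.

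The same break was found in both H3K9ac lists at 2 places. Between H2ac15 and H2bc15 it ran on chromosome 13 from 21753836 to 21754102 in H3K9ac replicate 1 and from 21753841 to 21754124 in replicate 2. Upstream of H4c1 it ran from 23761219 to 23761516 in replicate 1 and from 23761202 to 23761462 in replicate 2. Peaks covered 100% and 100% of the H2bc15 promoter window printed above in the H3K9cr libraries, against 11.0% and 5.33% in the H3K9ac libraries. For the H4c1 promoter the values were 100% and 100% in H3K9cr against 6.33% and 13.0% in H3K9ac. In the 5-gene region both H3K9ac lists had a break, but at different promoters, between H2bc7 and H2ac7 in replicate 1 and between H2ac8 and H2bc8 in replicate 2. The other 4 breaks, at H2ac22 with H2bc22, H2ac12 with H2bc12, H3c6 and H4c4, appeared in 1 H3K9ac replicate each.

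**Figure D2:**
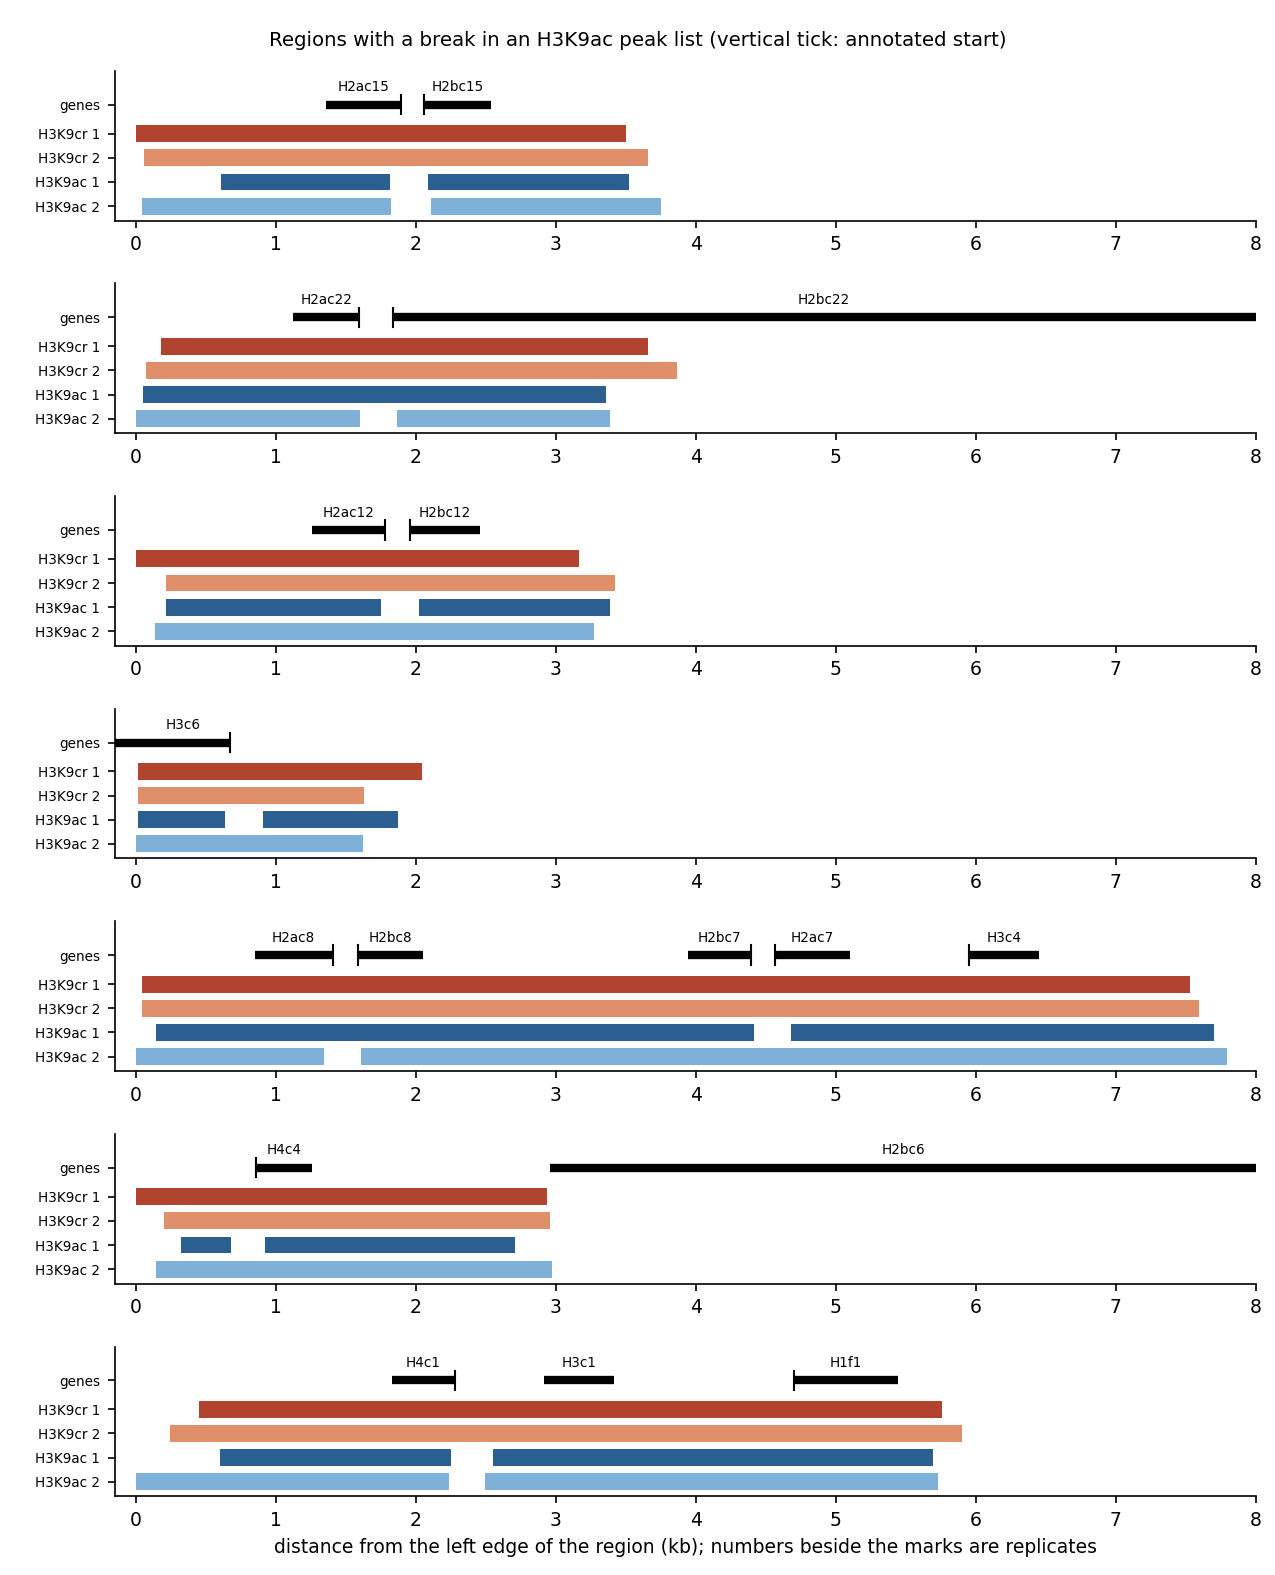
The 7 regions with a break in an H3K9ac list, drawn as peaks (bars) of the 2 H3K9cr libraries above those of the 2 H3K9ac libraries against the distance in kb from the left edge of the region; black bars are gene records and vertical ticks annotated starts, where known. Every gap in an H3K9ac bar stands beside a start and is bridged in both H3K9cr libraries.

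The 11 pairs of an H2A and an H2B gene at most 300 bp apart show 6 of the same breaks in another way. They are thus no separate evidence of a difference between the marks. The space between the records of a pair, 163 to 280 bp, was fully covered in 7 and 7 of the 9 marked pairs in H3K9cr and in 4 and 4 in H3K9ac. It was wholly uncovered in 1 and 0 of the marked pairs in H3K9cr and in 4 and 2 in H3K9ac. In each of the 9 pairs both genes had the same strongest peak in every library. Between H2ac11 and H2bc11 the space was left largely open by both marks, with 6.45% and 10.9% covered in H3K9cr and 0% and 7.66% in H3K9ac, and H2ac6 with H2bc4 was alike at 0% and 5.44% in H3K9cr against 0% and 0.837% in H3K9ac. At H2ac13 with H2bc13 and at H2ac20 with H2bc21, by contrast, all of it was covered in every library.

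Across the 57 members with a known start, peak cover dipped at the start or just upstream of it. Of positions taken every 50 bp, the lowest was the start in H3K9cr replicate 1 (73.7%) and 50 bp upstream in the other libraries, at 73.7% in H3K9cr replicate 2 and at 57.9% and 61.4% in H3K9ac. The start itself lay in a peak for 73.7% and 77.2% of members in H3K9cr and 59.6% and 66.7% in H3K9ac. At 500 bp upstream the shares were 80.7% and 82.5% in H3K9cr and 80.7% and 80.7% in H3K9ac, and at 500 bp downstream 87.7% and 87.7% in H3K9cr and 84.2% and 87.7% in H3K9ac. Of these 3 positions, the marks differed most at the start. The breaks counted above lie at starts, and a break between a pair can leave both starts uncovered. The start shares are thus no separate evidence of a difference between the marks. Other coding genes had 57.0% and 57.5% of starts covered in H3K9cr and 54.7% and 57.3% in H3K9ac, with 45.9% and 46.5% against 43.3% and 45.5% at 500 bp upstream, and no dip between these positions and the start. Among the families, the start was covered in all 5 H1 genes in every library, whereas for H2A it was covered in 64.7% and 70.6% of genes in H3K9cr and 41.2% and 58.8% in H3K9ac. For H2B the shares were 78.6% and 78.6% in H3K9cr and 64.3% and 57.1% in H3K9ac, for H3 80.0% and 80.0% against 70.0% and 80.0%, and for H4 63.6% and 72.7% against 54.5% and 63.6%.

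**Figure D3:**
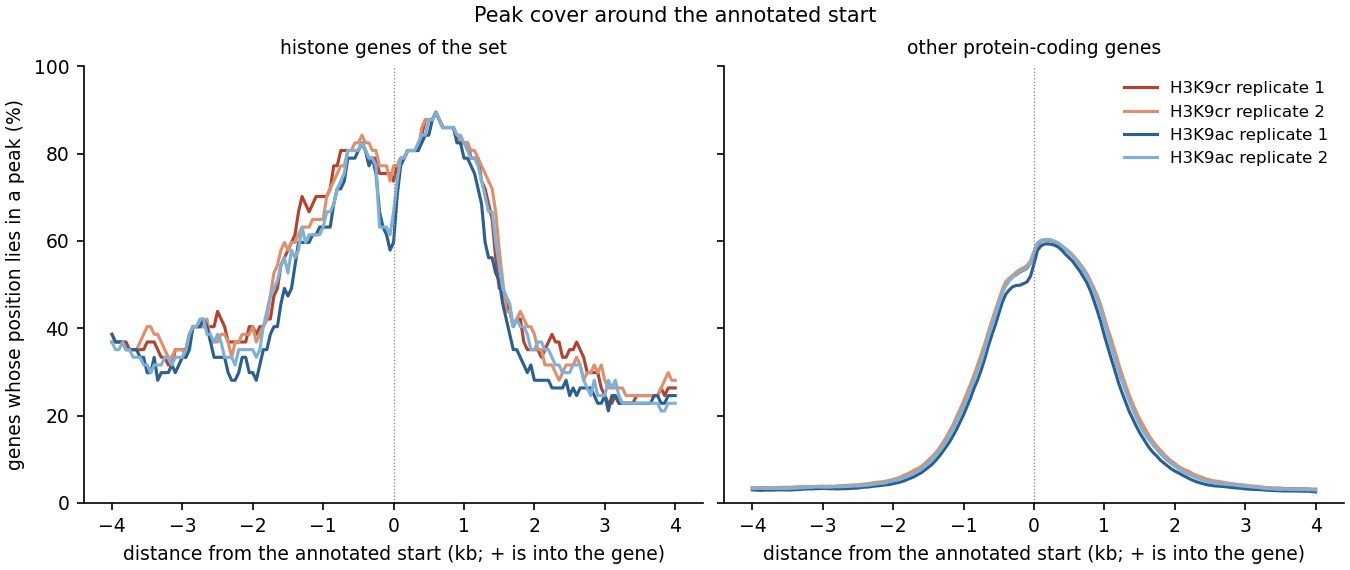
Share of genes (%) whose position lies in a peak, against the distance in kb from the annotated start, for the 57 histone genes with a known start (left) and 17434 other protein-coding genes (right), with 1 line per library. At the histone genes the lines dip at the start or 50 bp upstream of it, to 73.7% and 73.7% in H3K9cr against 57.9% and 61.4% in H3K9ac, and no such dip is seen at other genes.

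The strength of a mark at a gene was read as the percentile, within the library's own list, of the authors' fold enrichment of the strongest peak in the gene window. Over the 57 marked members the median percentile was 84.8 and 87.8 in H3K9cr and 81.5 and 84.0 in H3K9ac, against 76.7 and 76.8 in H3K9cr and 74.7 and 76.2 in H3K9ac for all marked coding genes. The H3K9cr values stood above the H3K9ac values in both sets (exact permutation p = 0.333, n = 2 each). Of the 57 members, 11 had a peak above percentile 90 in every library, and those 11 belonged to 4 groups that share a peak. The share of all marked coding genes above this limit is not given here, so the count does not set the members apart.

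H1, H2A, H2B and H3 genes were alike in strength and H4 genes were the most uneven family. The family median, averaged over the 4 libraries, was 85.8 for H1, 84.9 for H2A, 85.2 for H2B, 86.0 for H3 and 74.0 for H4. For H4 the median was 75.3 and 78.6 in H3K9cr and 66.4 and 75.9 in H3K9ac, for H3 it was 85.7 and 88.9 in H3K9cr and 82.7 and 86.6 in H3K9ac, and for H1 it was 88.9 and 83.3 in H3K9cr and 88.2 and 82.8 in H3K9ac. In every family the H3K9cr and H3K9ac values overlapped (exact two-sided permutation p = 0.667 in each family, n = 2 each, smallest possible 0.333), which does not show that the marks were alike. The mean difference, H3K9cr minus H3K9ac, was 0.575 percentile points in H1, 1.79 in H2A, 3.28 in H2B (SD 2.88 and 2.37), 2.67 in H3 (SD 2.27 and 2.72) and 5.77 in H4 (SD 2.36 and 6.68). Ranked by summit pileup in place of fold enrichment, the marks did not overlap in H2B, H3 and H4, which were 4.82, 3.85 and 6.18 points higher in H3K9cr (exact permutation p = 0.333 each, n = 2 each). Genes of different families share peaks, so that the families were not compared by a test. The H4 value also moved with the window, to 84.1 with 2.5 kb around the gene and 68.4 with 1 kb around the start.

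**Figure D4:**
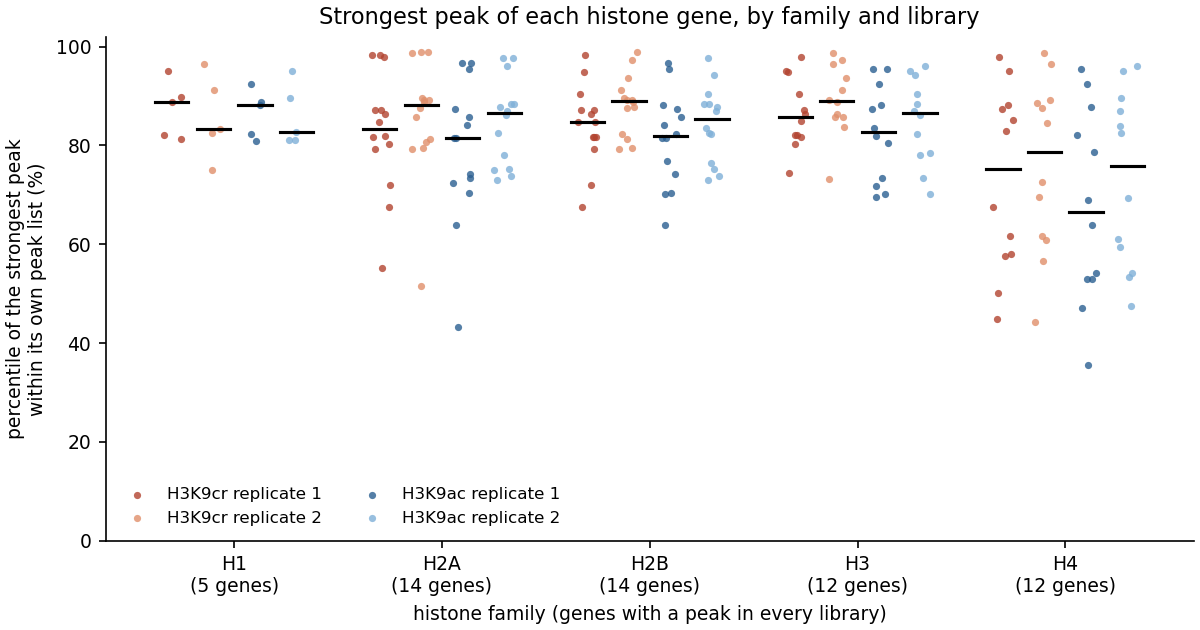
Percentile of the strongest peak of each marked histone gene within its own peak list (points; vertical axis in %), by family, with the 2 H3K9cr libraries left of the 2 H3K9ac libraries; horizontal bars are medians. The H4 genes spread farthest, with medians of 66.4 to 78.6, while H2A, H2B and H3 medians lie between 81.5 and 88.9.

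These 4 groups were the strongest histone sites. H2ac20, H2ac21 and H2bc21, replication-dependent H2A and H2B genes of cluster 3, shared a peak at percentile 98.4 and 98.9 in H3K9cr and 96.6 and 97.7 in H3K9ac. H4c8, H2ac10 and H3c8 in cluster 2 shared one at 97.9 and 98.8 in H3K9cr and 95.5 and 96.0 in H3K9ac. H3c13 and H2bc18 of cluster 3 stood at 94.8 and 97.3 in H3K9cr and 95.5 and 94.2 in H3K9ac. H4c1, H3c1 and H1f1 followed at 95.2 and 96.4 in H3K9cr and 92.4 and 95.0 in H3K9ac. The highest H1 genes were H1f1 and then H1f2, at 89.9 and 91.2 in H3K9cr and 88.9 and 89.6 in H3K9ac, and the lowest was H1f4, at 82.2 and 75.1 in H3K9cr and 82.4 and 81.1 in H3K9ac. The H1 genes encode somatic linker histones.

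Of the 6 weakest marked members, 5 were H4 genes. H4c17 had a percentile of 44.8 and 44.4 in H3K9cr and 35.7 and 47.4 in H3K9ac, the lowest of the 57, and H4c18 had 58.0 and 56.7 in H3K9cr and 47.1 and 53.3 in H3K9ac. The other weak H4 genes were H4c2, H4c3 and H4c4, with mean percentiles over the 4 libraries of 56.6, 58.8 and 60.8. H2ac19 was the lowest H2A gene, at 55.2 and 51.5 in H3K9cr and 43.2 and 86.1 in H3K9ac. Its high value in H3K9ac replicate 2 was that of the neighbouring H3c15 peak, which reached into its window in this library alone. The lowest H2B gene was H2bc11 with a mean of 75.4, and the lowest H3 gene H3c14 with a mean of 72.4. H2bc6, the member with the longest record, has 2 annotated starts, on chromosome 13 at 23621094 and 23585970, and a peak covered each of them in every library. Its strongest peak lay over the second start in both H3K9cr libraries and H3K9ac replicate 2 and over the first in H3K9ac replicate 1.

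H4c17 and H4c18 encode histone H4 and lie in cluster 1 beside the unmarked H2ac23 and H2ac24. The peaks were 491 and 519 bp long in H3K9cr and 363 and 513 bp in H3K9ac at H4c17, and 1141 and 1135 bp in H3K9cr and 436 and 1102 bp in H3K9ac at H4c18. The summits lay 662 to 665 bp downstream of the start of H4c17 and 666 to 693 bp downstream of that of H4c18. No peak overlapped the record of H4c18, and that of H4c17 was reached in H3K9cr replicate 2 alone, where 4.94% of it was covered. Neither promoter had a covered base in any library. Their promoters were 99.0% identical, the closest copies in the set, and both are shown here with the differing bases in capitals, 1 substitution and 2 bases at the ends where the windows are offset.
H4c17 (chr13:21811496-21811795, plus strand): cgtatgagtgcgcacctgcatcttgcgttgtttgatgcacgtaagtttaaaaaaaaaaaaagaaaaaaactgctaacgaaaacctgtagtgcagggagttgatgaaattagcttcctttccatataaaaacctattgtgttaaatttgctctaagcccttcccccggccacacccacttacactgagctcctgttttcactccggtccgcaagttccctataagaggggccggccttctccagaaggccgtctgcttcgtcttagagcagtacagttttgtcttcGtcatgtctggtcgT
H4c18 (chr13:21832148-21832447, minus strand): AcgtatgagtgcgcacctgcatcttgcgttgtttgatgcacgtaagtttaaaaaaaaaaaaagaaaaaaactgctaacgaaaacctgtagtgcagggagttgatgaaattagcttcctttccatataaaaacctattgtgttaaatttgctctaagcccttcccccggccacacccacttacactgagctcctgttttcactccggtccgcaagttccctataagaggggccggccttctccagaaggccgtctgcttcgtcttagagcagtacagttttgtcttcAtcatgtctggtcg
Other close copies were H3c14 with H3c15 (89.7% identical promoters) and H4c11 with H4c12 (87.0%). The windows of H3c14 and H3c15 were covered to 41.2 to 47.6% and 58.2 to 61.4%, whereas those of H4c11 and H4c12 were covered to at least 89.0%. H2ac18 and H2ac19 had promoters 72.7% identical. Their windows were covered to means of 37.0% and 36.9% in H3K9cr and 35.9% and 35.1% in H3K9ac. H2ac18 counted as marked, but no base of its record was covered in any library. How reads that match several copies were placed is not given in the sources used here. The part of sequence identity in the low cover of H4c17, H4c18, H3c14, H3c15, H2ac18 and H2ac19 was not tested.

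Peaks covered nearly the whole window of most members, and more of it in H3K9cr. The median covered share of the gene window was 95.1% and 96.6% in H3K9cr and 88.1% and 89.4% in H3K9ac (exact permutation p = 0.333, n = 2 each). For 9 members it was 100% in every library, so that no difference could be seen there. Both H3K9cr values lay above both H3K9ac values for 20 of 57 members (35.1%), against 37.2% of the 14659 coding genes with a peak in every library, and below them for 1 member, H3c3 (1.75%, against 3.67%). Without centring, the members' share of higher values was thus close to that of coding genes in general. With each library centred on its median over all genes, it was not. The counts were then 17 members above (29.8%, against 13.9% of all genes) and 12 below (21.1%, against 34.5% of all genes). Centring subtracted 7.90 and 8.06 percentage points in H3K9cr and 7.18 and 7.74 in H3K9ac, so that the 9 members at 100% in every library count among the 12 below.

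The differences were largest where H3K9ac peaks were broken or shorter. The window of H2ac15 was covered to 100% and 100% in H3K9cr against 79.6% and 88.8% in H3K9ac, and that of its partner H2bc15 to 98.6% and 100% against 88.6% and 88.5%. H4c1 had 100% and 100% in H3K9cr against 87.9% and 89.4% in H3K9ac, and H3c1 had 100% and 100% against 88.1% and 89.6%. In these 4 genes both H3K9cr libraries lay above both H3K9ac libraries. H4c2 had 66.6% and 89.0% in H3K9cr against 63.1% and 65.3% in H3K9ac, and H4c18 had 40.2% and 40.1% against 18.1% and 38.9%, differences that rest on a single library each. In the other direction H3c3 had 97.9% and 99.0% in H3K9cr against 100% and 100% in H3K9ac, and the differences of H2bc9, H3c15 and H2bc6 were under 2 percentage points with overlapping groups.

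None of these differences passed the test across genes. With limma on the centred covered share, 0 of 14659 genes (0%) had an adjusted p under 0.05 by the Benjamini-Hochberg method, and at an unadjusted p under 0.05 there were 812 (5.54%). These 812 included 8 members, 7 of them higher in H3K9cr. The smallest adjusted p among members was 0.280, for H4c1 (difference 10.9 percentage points, SE 0.462) and for H3c1 (10.6, SE 0.453), which share a peak. H2bc15 differed by 10.2 (SE 0.585, limma adjusted p = 0.352) and H2ac15 by 15.3 (SE 3.29, limma adjusted p = 0.651). The median centred difference was 1.90 percentage points over the 57 members and -0.24 over all genes tested. It rested in large part on H3K9ac replicate 1: without that library the members' median was 0.131. It turned to -0.39 when the gene record alone was used as the window and to -1.09 with 1 kb around the start. Measured on another scale, the log2 summed length of the peaks, the members' median difference was 0.0092.

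**Figure D5:**
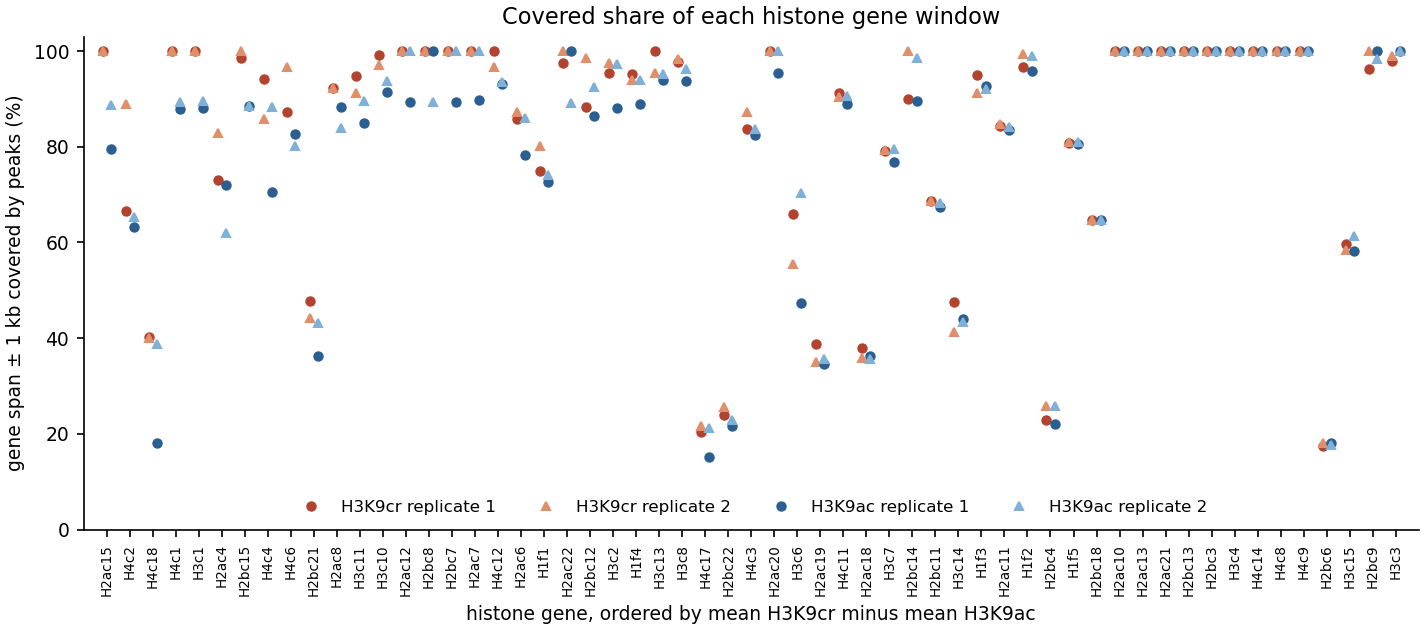
Share of the gene window (gene record and 1 kb on either side) covered by peaks, in %, for each of the 57 marked histone genes, H3K9cr points left of H3K9ac points (circles replicate 1, triangles replicate 2), ordered by the difference of the means. H2ac15, H4c1, H3c1 and H2bc15 have both H3K9cr points above both H3K9ac points, and 9 genes are at 100% in every library.

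In rank of the strongest peak the histone genes stood somewhat higher in H3K9cr than in H3K9ac, but no gene passed the test. Both H3K9cr ranks lay above both H3K9ac ranks for 24 of 57 members (42.1%), against 11.9% of all 14659 genes, and below for 1 member, H3c15, against 11.1% of all genes. The 24 members share peaks and belonged to 15 of the 32 groups. With limma on the ranks, 0 genes (0%) had an adjusted p under 0.05, 107 genes (0.73%) passed an unadjusted p under 0.05, and the smallest adjusted p of a member was 0.9998. Among the 107 were 4 members, namely H3c6 and the group of H4c8, H2ac10 and H3c8.

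Libraries with the same replicate number moved together at some of these genes. The peak shared by H4c9, H2ac11 and H2bc11 had a fold enrichment of 40.0 and 82.9 in H3K9cr and 31.2 and 78.5 in H3K9ac, as the authors' caller gave it. The local background implied by pileup and fold enrichment there was 4.0 and 2.04 in H3K9cr and 3.46 and 1.99 in H3K9ac, so that replicate 1 of each mark had the higher background and the lower enrichment. In H3K9cr this background was over 1.5 times the most frequent value of its list at 9 and 3 of the 57 members, and in H3K9ac at 7 and 5. The 7 members so affected in H3K9ac replicate 1 were among the 9 in H3K9cr replicate 1. The share of each whole list over this limit is not given here, so these counts cannot be compared with those of other genes. Only the share at the most frequent value is known, at 38.7% and 49.9% of peaks in H3K9cr and 40.1% and 49.6% in H3K9ac. Of the 57 members, 31 and 46 stood at that value in H3K9cr and 35 and 49 in H3K9ac. The part of this background in the ranks was not tested.

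Genes with related tasks were marked too. In both H3K9ac libraries the gene lists below had medians above those of the members, 81.5 and 84.0. In H3K9cr, where the members had 84.8 and 87.8, the order changed between the libraries. Of the replication-independent histone genes, which make histones throughout the cell cycle or in special cells, 12 of 15 were marked in every library, with a median percentile of 84.5 and 90.3 in H3K9cr and 88.8 and 90.3 in H3K9ac. H2aj, H2ax (the H2A of the DNA damage response), H2az1 and H3f3a stood highest, at means of 97.0, 96.0, 95.6 and 93.9. H1f10, H1f6 and Macroh2a1 stood lowest, at 65.1, 58.8 and 58.7, and the peak of H1f6, the testis H1 gene in cluster 2, was the one that also touches H4c3. H1f7, H1f8 and H2al2a, genes of the germ line, had no peak.

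All 23 genes for histone gene expression and supply were marked in every library, with a median percentile of 90.1 and 84.8 in H3K9cr and 86.8 and 85.0 in H3K9ac. The highest were Hat1, the acetyltransferase of newly made H4, Hinfp, the activator of H4 genes, Chaf1a of the chromatin assembly complex and Slbp, which binds the stem-loop of histone transcripts, at means of 97.8, 97.4, 96.5 and 95.8. The lowest were Ccne1 (cyclin E1), Asf1b (a histone chaperone), Zfp473 (a zinc finger protein of histone transcript processing) and Eri1 (an exonuclease acting on histone transcripts), at 76.5, 71.2, 71.0 and 69.2. Npat, the organiser of the histone locus body, stood at 94.7 and 79.5 in H3K9cr and 95.9 and 80.0 in H3K9ac, again with replicate 1 of each mark apart from replicate 2.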

How the data were processed

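Peaks of 2 H3K9cr and 2 H3K9ac libraries were analysed, grouped by the labels. Bowtie2 2.4.1, MACS2 2.2.7.1 and GRCm38 are named in the submitters' processing notes; options, read depth and input pairing are unknown from these sources. The authors deposited 1 list per library. Per the file headers, each peak has a position, a pileup (coverage signal at the summit), a deposited -log10 p-value and q-value, and a fold enrichment, a ratio that the authors' caller computed against the local background. The smallest -log10 q was 2.02 to 2.06. Longer lists and wider peaks can follow from depth as well as signal, so fold enrichment was ranked within a list.

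Gene records, promoters and strand were those of RefSeq (GRCm38.p6). Peaks were merged and ranked in Python 3.11.15 (scipy 1.17.1, pandas 2.3.3, numpy 2.4.6; figures by matplotlib 3.10.9). Local background was pileup plus 1, divided by fold enrichment, minus 1. Covered share, centred on the library median, and the normal score of the rank were fitted by mark with limma 3.58.1 in R 4.3.3 over genes with a peak in every library, and both fits were tested on simulated data. Alternatives were stricter or equally long lists, other windows, merging and measures, and leaving out each library.

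The members, lists and tests were chosen with earlier results of these data known. Members named were those without a peak, the 2 highest and the lowest of each family, the 5 with the largest difference in covered share in either direction (4 were lower in H3K9cr), those of the 3 longest regions and, for lists, the 4 highest and lowest. The breaks, the H2A and H2B pairs and the weakest 6 members were singled out after their values were seen.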

Additional observations from a re-analysis of the deposited data

How the results depend on the processing

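The number of marked members stayed between 47 (peaks covering at least 50% of the gene record) and 60 (2.5 kb around it) under the alternatives run. It was 57 with a stricter threshold, with equally long lists and without any 1 library, and 52 with 1 kb around the start, a window known for 57 members. The number of regions was 44 to 45 without any 1 library, and 36 when gaps of up to 500 bp were merged. The difference in peaks at members, H3K9cr minus H3K9ac, was -5, -4 with peaks of at least 5 in -log10 q, and -5.5 to -4.5 without 1 library. The breaks, chosen after seeing the data, were the same in number (6 and 4 in H3K9ac, 0 in H3K9cr) with the stricter threshold and with equally long lists.

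Family medians moved by more than the spread of the libraries as follows. H4, 74.0, became 81.8 with the gene record alone, 84.1 with 2.5 kb around it and 68.4 with 1 kb around the start. With the gene record alone H4c17 and H4c18, the H4 genes of lowest mean percentile, were not marked in every library and left the H4 median. Ranked by summit pileup, H2A was 81.2, H2B 81.6 and H3 82.4, and H2A was 80.0 when the summit had to lie in the window. Without any 1 library the medians were 84.8 to 86.8 for H1, 83.8 to 86.1 for H2A, 84.0 to 86.3 for H2B, 85.0 to 87.1 for H3 and 72.5 to 76.6 for H4. The cause was not tested.

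In both fits across genes 0 members were called under every alternative run, including those that left out 1 library. The median centred difference in covered share of the members, 1.90, was -0.39 with the gene record alone, -1.09 with 1 kb around the start and 2.42 without centring, and 0.131 to 2.22 without 1 library. Over all genes tested, -0.24 became -0.19 with the gene record alone, -1.40 with 1 kb around the start and 0.28 without centring. On the log2 summed length of the peaks, the median difference was 0.0092 in the members and -0.0062 over all genes. There 33 members were higher and 24 lower in H3K9cr, against 41 and 16 for covered share. The labels give replicate numbers but do not say that they pair the libraries. Deviations of same-numbered libraries correlated at 0.130 for covered share and 0.747 for rank, across genes; with the replicate block 0 genes were called for covered share and 1, no member, for rank. Ranking by summit pileup called 8 genes, none a member. For rank at an unadjusted limma p under 0.05, the block gave 5.57% of genes and 15 of 57 members, all 15 higher in H3K9cr. Summit pileup gave 8.10% of genes and 18 of 57 members, all 18 higher in H3K9cr. These members share peaks, so the counts are not of separate sites. With 2 libraries against 2 and no read depth, differences such as those at H4c2 that differ between replicates cannot be resolved.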
